A study of Mus musculus with 8 samples.

Results

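The 47 genes described here encode proteins that copy DNA or prepare the cell to copy it at the G1/S boundary. They comprise 13 genes grouped under helicase loading and origin licensing (Mcm8 and Mcm10 included) and 10 of helicase activation, primase and the polymerases. A further 11 are those of the sliding clamp, its loader, single-strand binding and Okazaki fragment joining. The remaining genes are 5 of nucleotide supply and 8 of chromatin assembly, checkpoint signalling and related functions. They were listed by gene symbol with no threshold on their values, although earlier results of these data were known when the list was made. All 47 symbols were present among the 22798 genes of the table, each once, and all 47 were among the 14647 genes kept for testing because their 8 libraries averaged 10 or more. RNA-seq was carried out on 3T3-L1 cells, a clonal mouse fibroblast line of embryonic origin (strain given as Swiss albino) that turns into adipocytes when induced. There were 4 stages with 2 libraries each. Proliferation libraries came from exponentially growing cells, and quiescence libraries from cells held at confluence for 48 hours. Clonal expansion libraries were taken 10 hours after addition of a cocktail of insulin (5 µg/µl), dexamethasone (1 µM) and isobutylmethylxanthine (0.25 mM), and differentiation libraries 6 days after that addition, the cocktail having been present for 48 hours and insulin alone afterwards. The 2 libraries of a stage are numbered experiments, and nothing says whether they came from separate cultures. The p-values therefore reflect library-to-library spread within these stages, part or all of which could be technical.

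Replication begins with the loading of the Mcm2-7 helicase onto origins by the origin recognition complex, Cdc6 and Cdt1, a step called licensing that takes place in G1. Once S phase starts, the GINS complex and Mcm10 help to switch the helicase on, polymerase alpha with its primase lays down primers, polymerases delta and epsilon extend them on the PCNA clamp, and Fen1 and DNA ligase I join the lagging strand. Most of these genes are textbook targets of the E2F transcription factors, which the retinoblastoma family holds in check in resting cells, whereas the genes of mitosis are switched on later in the cycle. Clonal expansion is the round of post-confluent division that 3T3-L1 cells go through after induction, before they differentiate.

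Values are normalised pseudo-counts, that is, read counts brought by the authors to a common library size, and fold changes are on the log2(value + 1) scale. The libraries held 122413485 to 151529060 pseudo-counts each, and the 47 genes together took 0.284% and 0.373% of them in proliferating cells, 0.171% and 0.160% in quiescent cells, 0.499% and 0.506% during clonal expansion, and 0.100% and 0.0970% after differentiation. Scaling every library to the same total instead moved the median of all genes by -0.23 on the log2 scale in clonal expansion against quiescence, -0.27 in clonal expansion against proliferation, -0.24 in differentiation against quiescence and -0.28 in differentiation against proliferation. With that scaling 3763 genes were called higher and 6312 lower in clonal expansion against quiescence (5038 and 5033 as deposited), and 3178 higher and 6412 lower in clonal expansion against proliferation (4792 and 4708). In differentiation against quiescence it gave 3787 higher and 6326 lower (4892 and 4825), and in differentiation against proliferation 3750 higher and 6533 lower (5051 and 4876). Markers of adipocytes (9 genes, among them Adipoq, Fabp4 and Plin1) summed to 2842000 and 2906000 at differentiation. In the 6 libraries of the other stages they summed to 9107 to 15430. All 6 preadipocyte markers were above 10 in every library, but their sums moved with stage too. They were 1264000 and 1520000 at differentiation, against 1750000 to 4171000 elsewhere, and highest at quiescence (4171000 and 3893000). Col1a1, Dlk1 and Thy1 were lower in both differentiation libraries than in any other. Col3a1 was higher at differentiation (817290 and 980873) than at proliferation (665831 and 538742). Markers of other cell types also moved with differentiation. The 7 macrophage and blood markers summed to 1254 and 1199 there, against 3247 to 6813 in the other libraries. Lyz2 (408 and 376, against 1314 to 4318) and Cd14 (513 and 469, against 1152 to 2004) made up most of the sums. Csf1r was lower too (31.8 and 43.7, against 131 to 201), whereas Cd68 was not (299 and 304, against 237 to 402). Ptprc, Emr1 and Itgam stayed below 10 in every library. The 4 epithelial markers summed to 1821 and 859 at differentiation, against 3.64 to 20.5 elsewhere, mostly from Krt18 (1711 and 801), with Epcam listed at 0 in every library. Krt8 was also higher there (107 and 55.1), whereas Cdh1 (3.16 and 3.09) was below its proliferation values (14.3 and 12.9). The 4 muscle markers summed to 5732 and 5201 at differentiation, against 246 to 1486 elsewhere, mostly from Des (5571 and 4992), with Myod1 and Myog below 10 in every library. Acta1 at differentiation (159 and 206) was near its proliferation values (163 and 200). The 4 endothelial markers summed to 161 and 134 at differentiation, against 209 to 297 elsewhere. The part of these markers in the results was not tested. One feature of the replicates touches the results below. Proliferation library 2 lay above proliferation library 1 for 47 of 47 genes, by a median of 0.41 on the log2 scale (0.15 to 0.74), while the median over all genes was close to 0 (-0.001) and 49.5% of all genes were higher in library 2. In the other stages the median difference of the 47 genes was -0.155 at quiescence, -0.05 at clonal expansion and -0.023 at differentiation. The fit shares 1 estimate of the spread over all stages. Standard errors and p-values of these genes against proliferation may therefore be too small. Counts of calls against proliferation are given also without that library where it moves them by more than 1.5 times, and the part of this offset in the results was not tested.

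The genes moved largely as a block through the 4 stages. Mean levels were highest at clonal expansion, then at proliferation, then at quiescence and lowest at differentiation in 37 of the 47 genes. The other 10 departed from that order in 5 ways. Orc2, Rfc1 and Ung were lowest at quiescence and second highest at differentiation. Tk1, Pola1 and Lig1 were highest at proliferation. Orc6 and Gins1 were lowest at quiescence, Rfc4 was highest at proliferation and lowest at quiescence, and Rpa3 was highest at differentiation and lowest at clonal expansion. These are orders of means, and neighbours in them often did not differ by test: clonal expansion and proliferation in 9 genes, and differentiation and quiescence in 12.

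**Figure D1:**
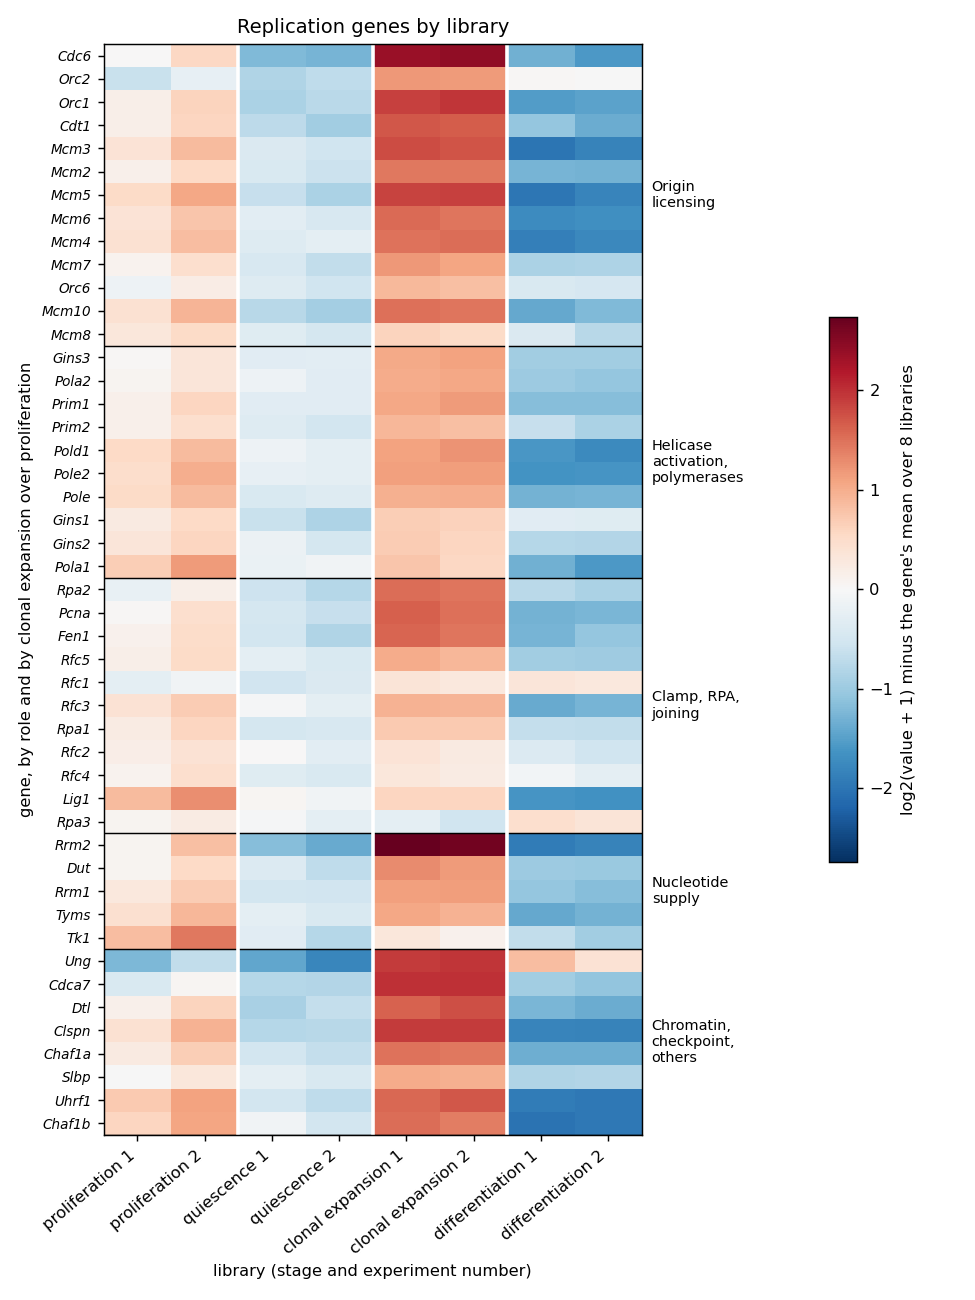
Each of the 47 replication genes (lines, grouped by role) in each of the 8 libraries (columns), as log2(value + 1) minus the gene's mean over the libraries, red above and blue below that mean. The 2 clonal expansion columns are red for every gene but Rpa3, whose levels there were 1952 and 1620 pseudo-counts, and Ung, Rfc1 and Rpa3 are the genes above their mean in both differentiation libraries, with Orc2 close to its mean there.

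At quiescence 44 of the 47 genes fell relative to proliferation and 0 rose. In this comparison 11.8% of all genes tested were lower and 11.9% higher. The median change was -0.90 on the log2 scale, that is 0.535 times the proliferation level, against -0.007 over all genes, and 19 genes fell at least 2-fold. Both quiescence libraries lay below both proliferation libraries for 47 of 47 genes. The largest falls were those of Rrm2 at -1.72 (SE 0.20, limma adjusted p = 0.000349), Tk1 at -1.71 (SE 0.21, limma adjusted p = 0.000484) and Mcm5 at -1.54 (SE 0.16, limma adjusted p = 0.000246). Genes that missed the threshold were Orc2 at -0.35 (limma adjusted p = 0.0735), Rfc1 at -0.28 (limma adjusted p = 0.0653) and Rpa3 at -0.30 (limma adjusted p = 0.151). In population RNA such as this, fewer cells expressing a gene and less of its RNA per cell cannot be told apart. Without proliferation library 2, 30 genes were called lower, against 44 with it, while calls over all genes dropped to 1304, against 3472; the median change was then -0.72, and without library 1 it was -1.08. Falls of at least 2-fold numbered 8 without library 2 and 29 without library 1. The 30 genes also kept their call in each of the 17 alternative settings, and the 14 that lost it in at least 1 were Cdca7, Gins3, Mcm8, Orc6, Pola2, Prim1, Prim2, Rfc2, Rfc3, Rfc4, Rfc5, Rpa2, Slbp and Ung. All 14 lost it without proliferation library 2, and Orc6, Pola2, Rfc2 and Ung also without quiescence library 2.

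At clonal expansion 46 of the 47 genes rose relative to quiescence and 0 fell, where 34.4% of all genes tested were higher and 34.4% lower. The median gene was 3.14-fold higher (1.65 on the log2 scale, against -0.006 over all genes), and 38 genes rose at least 2-fold. Rrm2 rose 15.6-fold, Cdc6 12.4-fold and Ung 11.7-fold. The gene that did not rise was Rpa3, at -0.27 (limma adjusted p = 0.11); with every library scaled to the same total it was called lower, at -0.50, limma adjusted p = 0.00646. Both clonal expansion libraries lay above both quiescence libraries for the 46 genes called. Of these, 44 kept their call in each of the 17 alternatives. The call of Rfc2 was lost in the 2 other scalings and without quiescence library 2 or clonal expansion library 1, and that of Tk1 without quiescence library 2 (0.53, limma adjusted p = 0.0553).

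Set against proliferating cells, clonal expansion still stood higher for most of the genes. Here 35 of the 47 genes were higher and 3 lower, where 32.7% of all genes tested were higher and 32.1% lower. The median gene was 1.76-fold higher, or 0.82 on the log2 scale against 0.003 over all genes, and 16 genes were at least 2-fold higher. Ung stood 7.38-fold above proliferation, Rrm2 4.73-fold, Cdca7 4.52-fold and Cdc6 4.32-fold. Below proliferation were Tk1 at -0.94 (SE 0.21, limma adjusted p = 0.00285), Rpa3 at -0.56 (SE 0.14, limma adjusted p = 0.00484) and Lig1 at -0.50 (SE 0.13, limma adjusted p = 0.00818). Genes on neither side were Mcm8, Tyms, Pola1, Pole, Pole2, Gins1, Gins2, Rfc2 and Rfc4, with changes between -0.26 and 0.39. Without proliferation library 1, the lower of the pair, 31 genes were called higher, and without library 2, 38 were. Scaled to the same total 29 genes were called higher and 4 lower, and after quantile normalization 33 and 4. The median change was 0.54 scaled to the same total and 0.63 after quantile normalization. It was 0.65 without proliferation library 1 and 0.99 without library 2. Calls that were lost in at least 1 of the 17 alternatives were those of Chaf1b, Lig1, Pold1, Prim2, Rfc1, Rfc3, Rpa1 and Rpa3, which leaves 29 higher genes and Tk1 as the lower one. Single libraries decided the calls of Chaf1b (proliferation 1 or clonal expansion 1), Pold1 (proliferation 1 or clonal expansion 2), Rfc3 (either of these 3), Rpa1, Lig1 (proliferation 2) and Rpa3 (clonal expansion 2).

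At differentiation the genes had dropped again. Relative to clonal expansion 45 of the 47 fell and 1, Rpa3, rose, where 36.2% of all genes tested were lower and 36.8% higher. The median gene stood at 0.207 times its clonal expansion level, and 42 fell at least 2-fold. Rrm2 fell by the most, at -4.57 (SE 0.20, limma adjusted p = 2.59e-08), followed by Cdc6 at -3.84 (SE 0.18, limma adjusted p = 3.88e-08) and Mcm5 at -3.76 (SE 0.16, limma adjusted p = 2.64e-08). Rfc1 did not change by test, at -0.01 (limma adjusted p = 0.943). The 2 differentiation libraries are also those in which the marker sums given above differed from the other stages. This held for adipocyte, preadipocyte, macrophage, epithelial, muscle and endothelial markers, and their part in these results was not tested. The fall of Rfc4, at -0.44 (limma adjusted p = 0.0173), was lost without clonal expansion library 1 (-0.40, limma adjusted p = 0.0962) or differentiation library 2 (-0.34, limma adjusted p = 0.125), and the other 45 calls held in each of the 17 alternatives.

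Compared with quiescence, 30 genes were lower at differentiation, 5 higher and 12 on neither side, where 32.9% of all genes tested were lower and 33.4% higher. The median change was -0.59 on the log2 scale, and 13 genes were at least 2-fold lower. Chaf1b had the largest fall at -1.69 (SE 0.18, limma adjusted p = 1.8e-05), then Lig1 at -1.63 (SE 0.13, limma adjusted p = 2.53e-06) and Mcm4 at -1.51 (SE 0.14, limma adjusted p = 5.18e-06). Higher at differentiation were Ung at 2.22 (SE 0.21, limma adjusted p = 7.61e-06), Orc2 at 0.78 (SE 0.13, limma adjusted p = 0.000371), Rfc1 at 0.77 (SE 0.10, limma adjusted p = 6.86e-05), Rpa3 at 0.55 (SE 0.14, limma adjusted p = 0.00519) and Gins1 at 0.41 (limma adjusted p = 0.0388). With every library scaled to the same total 39 genes were lower and 3 higher, Gins1 and Rpa3 being the calls lost. Leaving out single libraries gave 25 to 33 lower genes, and 8 calls were lost in at least 1 of the 17 alternatives: Dtl, Dut, Fen1, Gins1, Gins2, Mcm10, Rpa3 and Rrm2. Of these, Rrm2, Dut, Mcm10 and Gins2 lost theirs without quiescence library 1 or either differentiation library, Fen1 without quiescence library 1 or differentiation library 1, and Dtl without library 2 of either stage. Against proliferation 43 genes were lower at differentiation and 3 higher, where 33.3% of all genes tested were lower and 34.5% higher, and the median change was -1.59. The 3 higher genes were Ung at 1.56 (SE 0.21, limma adjusted p = 9.54e-05), Rfc1 at 0.49 (SE 0.10, limma adjusted p = 0.00149) and Orc2 at 0.43 (SE 0.13, limma adjusted p = 0.0132), of which Rfc1 and Orc2 lost their call when libraries were scaled to the same total (0.21, limma adjusted p = 0.071 and 0.15, limma adjusted p = 0.305). Orc2 also lost it without proliferation library 1 or either differentiation library, and Orc6 and Rfc4, both called lower, lost theirs without proliferation library 2 or differentiation library 2. Without proliferation library 2, 41 genes were lower and 3 higher.

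Since most of the genes moved together and E2F sites are the textbook element of their promoters, promoter sequence is shown for 6 of them. The 250 bases before the transcription start were read 5′ to 3′ on the strand of the gene from RefSeq promoters of the GRCm38.p6 build. Capitals mark an exact match, on either strand, to one of 4 E2F-like words, TTTCCCGC, TTTCGCGC, TTTGCCGC or TTTGGCGC. Mcm5 (chr8:75109259-75109508, plus strand) and Mcm6 (chr1:128359706-128359955, minus strand) encode subunits of the same helicase and each carry a pair of overlapping words in opposite orientation. In Mcm5 they begin 153 and 149 bases before the start, and in Mcm6 110 and 106 bases before it, with a further word at 47. Cdc6 (chr11:98907901-98908150, plus strand), the helicase loader, has 1 word 138 bases before the start. Cdca7 (chr2:72475969-72476218, plus strand), which activates the chromatin remodeller Hells, has 1 word at 71. Rrm2 (chr12:24708004-24708253, plus strand), the inducible subunit of ribonucleotide reductase, and Ung (chr5:114130185-114130434, plus strand), which removes uracil from DNA, had the largest rises above proliferation, and none of the 4 words is present in their windows.
Mcm5: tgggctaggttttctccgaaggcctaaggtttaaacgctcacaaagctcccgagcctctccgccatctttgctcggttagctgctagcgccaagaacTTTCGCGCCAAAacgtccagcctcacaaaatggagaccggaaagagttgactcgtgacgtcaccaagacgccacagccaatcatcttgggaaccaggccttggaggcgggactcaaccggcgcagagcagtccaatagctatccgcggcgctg
Mcm6: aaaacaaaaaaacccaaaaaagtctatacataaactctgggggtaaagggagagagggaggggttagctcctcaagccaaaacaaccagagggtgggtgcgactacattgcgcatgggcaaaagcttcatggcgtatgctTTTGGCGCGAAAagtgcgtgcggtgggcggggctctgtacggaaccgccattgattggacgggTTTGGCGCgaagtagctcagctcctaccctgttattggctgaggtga
Cdc6: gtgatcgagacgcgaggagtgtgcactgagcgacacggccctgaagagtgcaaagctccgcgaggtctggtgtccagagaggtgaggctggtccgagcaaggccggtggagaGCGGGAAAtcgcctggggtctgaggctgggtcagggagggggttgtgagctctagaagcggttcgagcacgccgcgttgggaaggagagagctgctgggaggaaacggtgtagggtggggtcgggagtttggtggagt
Cdca7: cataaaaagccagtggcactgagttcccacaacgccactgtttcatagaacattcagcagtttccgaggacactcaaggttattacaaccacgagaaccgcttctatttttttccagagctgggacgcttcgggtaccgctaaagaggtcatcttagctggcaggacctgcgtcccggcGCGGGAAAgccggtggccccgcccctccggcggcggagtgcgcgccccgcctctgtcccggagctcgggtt
Rrm2: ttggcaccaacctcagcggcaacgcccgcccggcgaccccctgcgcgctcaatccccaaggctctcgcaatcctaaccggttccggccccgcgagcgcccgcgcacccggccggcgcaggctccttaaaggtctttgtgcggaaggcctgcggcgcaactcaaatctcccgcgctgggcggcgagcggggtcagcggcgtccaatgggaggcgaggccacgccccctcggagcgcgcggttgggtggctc
Ung: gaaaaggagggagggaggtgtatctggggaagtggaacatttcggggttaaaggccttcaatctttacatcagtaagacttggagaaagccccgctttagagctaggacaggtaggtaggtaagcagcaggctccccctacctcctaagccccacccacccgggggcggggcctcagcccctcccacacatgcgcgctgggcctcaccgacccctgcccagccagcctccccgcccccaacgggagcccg

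Windows from 250 bases before to 50 after the start were available for 41 of the 47 genes, 47 windows in all, and were searched on both strands for exact matches. An E2F-like word was present in 38.3% of these windows, in 23.7% of the 38 windows of other replication genes and 27.6% of the 29 windows of the E2F and G1/S control genes, in 2.7% of the 37 windows of 35 genes of the G2/M list, all 3 lists being described below, and in 2.9% of the 21262 windows of all protein-coding genes in the table of promoters. The cell cycle homology region word TTTGAA, known from promoters of mitotic genes, was present in 6.4% of the windows of the 47 genes, 26.3% of those of the other replication genes, 20.7% of those of the E2F and G1/S control genes, 73.0% of those of the G2/M list and 16.0% of all protein-coding windows. CCAAT, the word bound by NF-Y, was present in 61.7%, 39.5%, 41.4%, 75.7% and 38.2% of the 5 sets in the same order. Matches can share letters, as the paired E2F-like words in Mcm5 and Mcm6 do. The 18 genes with an E2F-like word included Mcm3, Mcm5, Mcm6, Mcm7, Cdc6, Cdt1, Orc1, Pola1, Pole2, Lig1, Uhrf1, Clspn and Dtl, and their median change was -1.08 at quiescence against proliferation, 2.05 at clonal expansion against quiescence and 0.91 at clonal expansion against proliferation. For the 23 genes without one, among them Pcna, Rrm1, Rrm2, Tk1, Ung and Rpa3, the medians were -0.80, 1.65 and 0.82. The medians lay further apart at differentiation: -1.10 with a word and -0.49 without against quiescence, -2.94 and -2.24 against clonal expansion, and -2.08 and -1.33 against proliferation. At differentiation against quiescence 13 of the 18 genes with a word fell and 0 rose, and 14 of the 23 without fell and 4 rose. Over all genes tested, 32.9% were lower and 33.4% higher in that comparison. The differences between the sets were not tested. The ranges of the sets overlapped throughout, for instance -1.54 to -0.49 with a word and -1.72 to -0.28 without at quiescence against proliferation. A match is a description of letters in a window, and the absence of one says only that these words were not in it.

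**Figure D2:**
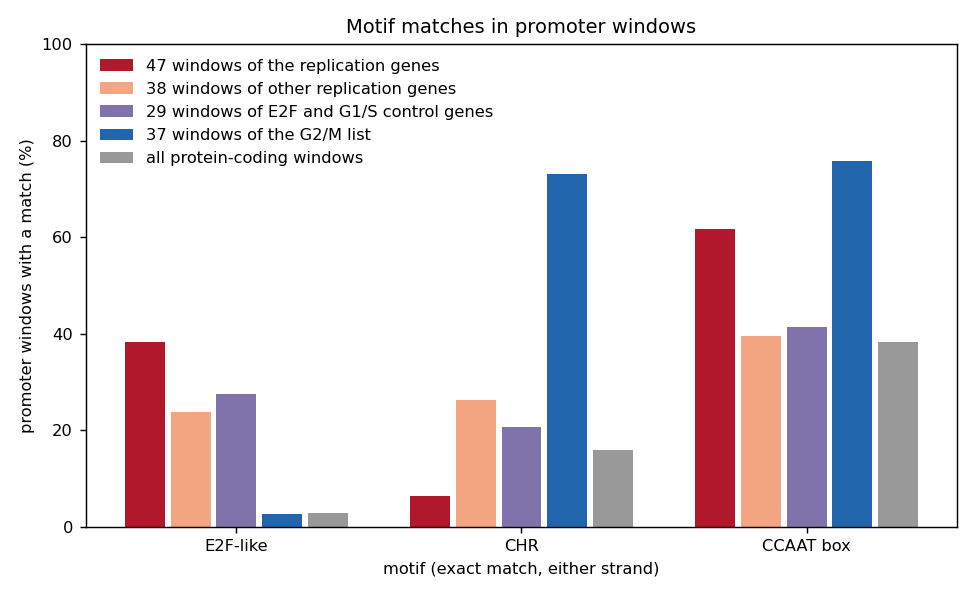
Share of promoter windows (percent, from 250 bases before to 50 after the start) with an exact match on either strand to an E2F-like word, the TTTGAA word (CHR) or CCAAT, for the 47 replication genes (red), the other replication genes (orange), the E2F and G1/S control genes (purple), the G2/M list (blue) and all protein-coding genes (grey). The E2F-like bars are 38.3%, 23.7% and 27.6% for the first 3 sets and low for the others, and the TTTGAA bar is tallest for the G2/M list (73.0%).

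The 13 genes grouped under helicase loading and licensing include Mcm8 and Mcm10. Among them 12 fell at quiescence, 13 rose at clonal expansion relative to quiescence and 12, all but Mcm8, stood above proliferation there. Their median was 2.10 times the proliferation level. Over all genes tested, 11.8% fell at quiescence and 34.4% rose at clonal expansion relative to quiescence. Against proliferation 32.7% were higher there and 32.1% lower, and 32.9% were lower at differentiation than at quiescence. These shares also stand beside the counts of the other role groups below. Cdc6 (mm9 chr11:98769203-98785256), the ATPase that brings the helicase to the origin recognition complex, had 2034 and 3025 pseudo-counts in proliferating cells, 881 and 839 in quiescent cells, 10474 and 10952 during clonal expansion and 809 and 685 after differentiation. The 2 clonal expansion libraries lay well above all others, and differentiation and quiescence were close. The rise over proliferation was 2.11 (SE 0.18, limma adjusted p = 5.62e-06), while differentiation against quiescence gave -0.21 (limma adjusted p = 0.323). Cdt1, the partner of Cdc6 in loading, had 4216 and 5643 pseudo-counts in proliferating cells, 2276 and 1923 in quiescent cells, 12181 and 11795 during clonal expansion and 1790 and 1460 after differentiation. Its order of stages was the same, without overlap between any 2 stages, and clonal expansion stood 2.46-fold above proliferation (limma adjusted p = 6.57e-05). Orc1, the ATPase subunit of the origin recognition complex, had 1266 and 1722 pseudo-counts in proliferating cells, 624 and 678 in quiescent cells, 4173 and 4426 during clonal expansion and 392 and 408 after differentiation. That is a rise over proliferation of 1.54 (SE 0.16, limma adjusted p = 2.02e-05), with a fall at differentiation against quiescence of -0.70 (SE 0.16, limma adjusted p = 0.00296).

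Orc2 (mm9 chr1:58519615-58561763), a core subunit of the same complex, differed from Orc1 at differentiation. It had 3631 and 4700 pseudo-counts in proliferating cells, 3093 and 3394 in quiescent cells, 12577 and 12421 during clonal expansion and 5627 and 5471 after differentiation. Both differentiation libraries lay above all 4 proliferation and quiescence libraries, whereas for Orc1 both lay below them. Orc6, the smallest subunit, had 5276 and 5073 pseudo-counts at differentiation, against 5495 and 4842 at quiescence, which overlap, and its change there was 0.00 (limma adjusted p = 0.979). The other scalings and single libraries turned the sign of that small difference.

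Mcm2, a subunit of the helicase ring, had 18944 and 25175 pseudo-counts in proliferating cells, 12874 and 11340 in quiescent cells, 46684 and 46637 during clonal expansion and 7050 and 7024 after differentiation. Mcm5 (mm9 chr8:77633427-77652338), another of the ring, had 17880 and 25976 pseudo-counts in proliferating cells, 8006 and 6827 in quiescent cells, 44976 and 45433 during clonal expansion and 3152 and 3542 after differentiation. For both, no 2 stages overlapped. Mcm5 rose at clonal expansion over proliferation by 1.07 (SE 0.16, limma adjusted p = 0.000258), and fell by 1.15 on the log2 scale at differentiation against quiescence (SE 0.16, limma adjusted p = 0.000133). The other 4 ring genes did likewise at clonal expansion over proliferation, with changes of 0.85 for Mcm7, 0.88 for Mcm4, 0.94 for Mcm6 and 1.13 for Mcm3, all called higher. At differentiation against quiescence Mcm3, Mcm4 and Mcm6 fell by 1.45, 1.51 and 1.34 on the log2 scale, while Mcm7 was at -0.30 (limma adjusted p = 0.0691). The Mcm7 locus hosts the microRNA genes Mir25, Mir93 and Mir106b, which themselves reached at most 80 pseudo-counts. Mcm8, a relative of the ring subunits that acts in recombinational repair rather than licensing, had 1694 and 1971 pseudo-counts in proliferating cells, 1098 and 990 in quiescent cells, 2085 and 1977 during clonal expansion and 1051 and 813 after differentiation. Its clonal expansion and proliferation libraries differed by 0.15 (limma adjusted p = 0.406), the smallest change of the 13, and the sign turned when libraries were scaled to the same total (-0.12, limma adjusted p = 0.497). Mcm10, which helps to activate the loaded helicase, was lower at quiescence, at -1.53 (SE 0.16, limma adjusted p = 0.000271) and higher at clonal expansion over proliferation by 0.81 (SE 0.16, limma adjusted p = 0.00153).

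**Figure D3:**
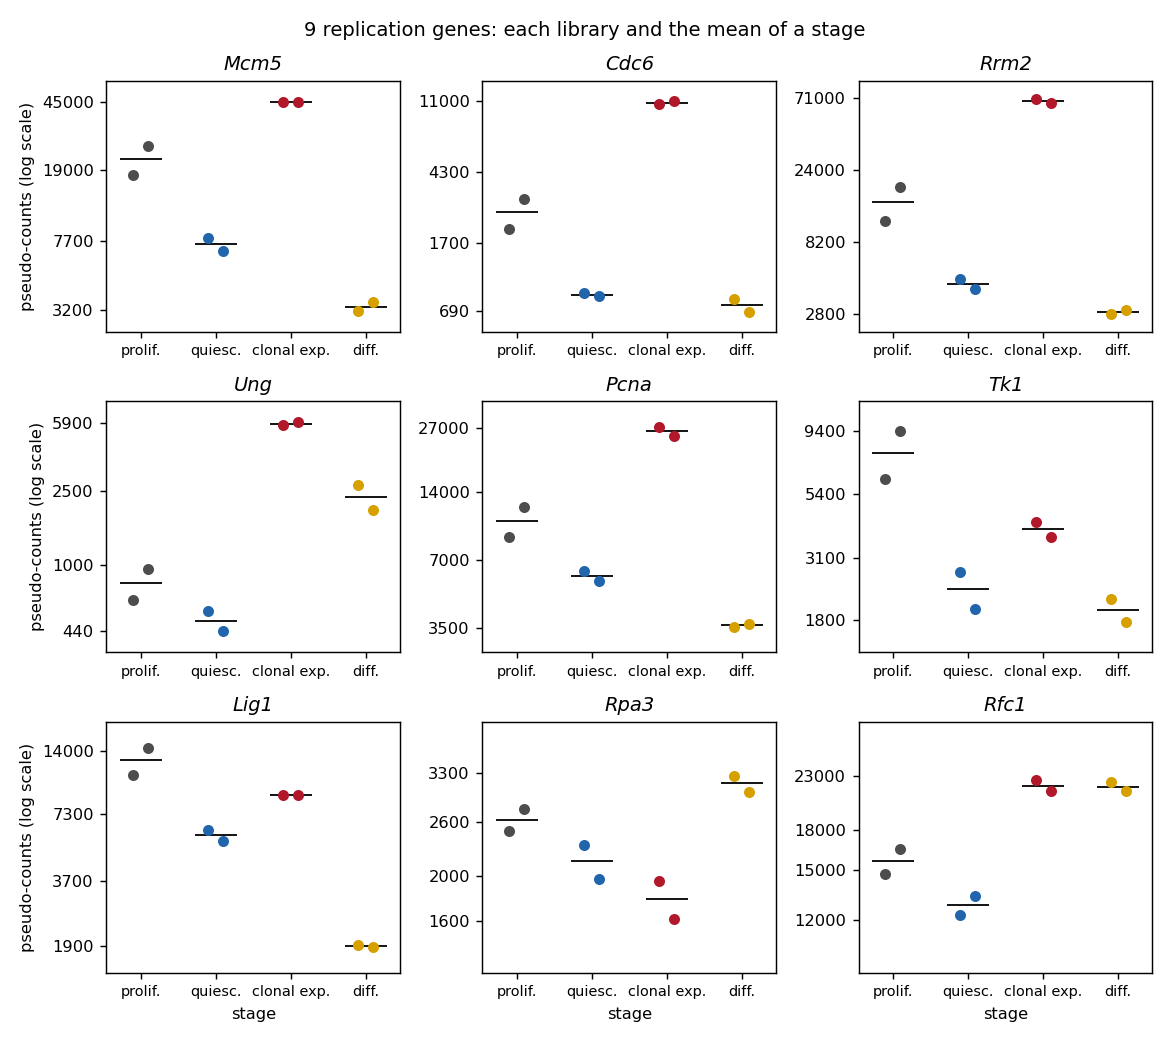
Pseudo-counts (log axis, ticks at rounded data values) of 9 genes in each library (points) with the mean of the 2 libraries of a stage (bars), stages from left to right being proliferation, quiescence, clonal expansion and differentiation. Mcm5, Cdc6, Rrm2, Ung and Pcna peak at clonal expansion, Tk1 and Lig1 at proliferation, Rpa3 at differentiation (3258 and 3015), and Rfc1 is level between clonal expansion and differentiation.

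All 10 genes for helicase activation, primase and polymerases fell at quiescence and rose at clonal expansion relative to quiescence. At clonal expansion 5 stood above proliferation: Pola2, Pold1, Prim1, Prim2 and Gins3. The median was 1.34 times the proliferation level, and none was 2-fold higher. With the experiment number as a replicate block, Pole and Pole2 were also called higher in that comparison. Quantile normalization called Pole2 and Gins1 higher and Pola1 lower, and lost the call of Pold1. Leaving out proliferation library 2 gave changes of 0.45 for Pole and 0.65 for Pole2. Without proliferation library 2, 6 of the 10 fell at quiescence, and with libraries scaled to the same total 3 stood above and 1 below proliferation at clonal expansion. Gins3, a subunit of the GINS complex that joins the helicase, had 2176 and 2694 pseudo-counts in proliferating cells, 1720 and 1733 in quiescent cells, 4350 and 4544 during clonal expansion and 1105 and 1102 after differentiation. Its rise over proliferation, 0.88 (SE 0.13, limma adjusted p = 0.000178), was the largest of the 10. Gins1, another subunit, had 981 and 1208 pseudo-counts in proliferating cells, 542 and 459 in quiescent cells, 1330 and 1285 during clonal expansion and 664 and 659 after differentiation. Clonal expansion and proliferation differed by 0.26 (limma adjusted p = 0.156), and Gins1 was the one gene of this group above quiescence at differentiation, at 0.41 (SE 0.15, limma adjusted p = 0.0388); that call was lost in 7 alternatives, among them scaling to the same total (0.17, limma adjusted p = 0.33). Pola1, the catalytic subunit of polymerase alpha, had 7441 and 10378 pseudo-counts in proliferating cells, 4090 and 4314 in quiescent cells, 7795 and 6895 during clonal expansion and 1851 and 1563 after differentiation. The clonal expansion libraries overlapped the proliferation libraries, and the change was -0.26 (limma adjusted p = 0.172), while scaling to the same total made it a call (-0.54, limma adjusted p = 0.0122). Pola2, its regulatory subunit, had 6476 and 7750 pseudo-counts in proliferating cells, 5585 and 4942 in quiescent cells, 12335 and 12657 during clonal expansion and 3067 and 2940 after differentiation, and there both clonal expansion libraries lay above both proliferation libraries (log2 fold change 0.82, SE 0.12, limma adjusted p = 0.000155).

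Pole2, a subunit of polymerase epsilon, had 1620 and 2323 pseudo-counts in proliferating cells, 989 and 967 in quiescent cells, 2533 and 2557 during clonal expansion and 375 and 378 after differentiation. At quiescence it was at 0.504 times the proliferation level (log2 fold change -0.99, SE 0.17, limma adjusted p = 0.00249), and its change at clonal expansion over proliferation was 0.39 (limma adjusted p = 0.0612). The catalytic subunit, Pole, was close to that at 0.28 (limma adjusted p = 0.0579). Pold1, the catalytic subunit of polymerase delta, was called higher at 0.46 (limma adjusted p = 0.00929), a call that was lost without proliferation library 1 (0.31, limma adjusted p = 0.0879), without clonal expansion library 2 (0.39, limma adjusted p = 0.0739) and in both other scalings. The primase subunits Prim1 and Prim2 were higher by 0.76 and 0.58. At differentiation against quiescence 8 of the 10 fell, Prim2 being the one on neither side at -0.32 (limma adjusted p = 0.063).

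Among the 11 genes of the clamp, clamp loader, single-strand binding and fragment joining, 9 fell at quiescence, 10 rose at clonal expansion relative to quiescence, and 7 stood above and 2 below proliferation there. Without proliferation library 2, 4 of the 11 fell at quiescence, the calls of Rfc2, Rfc3, Rfc4, Rfc5 and Rpa2 being lost, and 7 stood above and 1 below proliferation at clonal expansion. In both other scalings 4 stood above and 2 below. Pcna, the sliding clamp that tethers the polymerases, had 8879 and 12039 pseudo-counts in proliferating cells, 6245 and 5620 in quiescent cells, 27148 and 24819 during clonal expansion and 3540 and 3624 after differentiation. No 2 stages overlapped, and clonal expansion stood 1.33 (SE 0.14, limma adjusted p = 2.32e-05) above proliferation. Fen1, the flap nuclease that trims Okazaki fragments, had 6059 and 7958 pseudo-counts in proliferating cells, 3969 and 3180 in quiescent cells, 16898 and 15460 during clonal expansion and 2320 and 2716 after differentiation. The pattern was that of Pcna, with 1.22 (SE 0.16, limma adjusted p = 8.82e-05) over proliferation. Lig1 (mm9 chr7:13862778-13896776), the ligase that seals the same fragments, had 10868 and 14432 pseudo-counts in proliferating cells, 6202 and 5555 in quiescent cells, 8874 and 8880 during clonal expansion and 1920 and 1878 after differentiation. In contrast to Fen1 its 2 clonal expansion libraries lay below both proliferation libraries, a call lost without proliferation library 2 (-0.29, limma adjusted p = 0.072). At differentiation Lig1 was at 0.152 times the proliferation level (log2 fold change -2.72, SE 0.13, limma adjusted p = 6.47e-08). Lig1 overlaps the gene 6330408A02Rik, which reached at most 2118 pseudo-counts, and since the libraries carry no strand, reads from the overlap cannot be told apart.

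Rpa2, the middle subunit of the single-strand binding protein RPA, had 3660 and 4699 pseudo-counts in proliferating cells, 2848 and 2455 in quiescent cells, 12144 and 11545 during clonal expansion and 2526 and 2295 after differentiation. Clonal expansion was far above the other stages, with 1.51 (SE 0.14, limma adjusted p = 9.1e-06) over proliferation, the largest rise of the 11. Rpa1, the large subunit, was higher over proliferation by only 0.33 (SE 0.12, limma adjusted p = 0.0344), a call lost in 9 alternatives, among them without proliferation library 1 (0.14, limma adjusted p = 0.295). Rpa3 (mm9 chr6:8205936-8209141), the small subunit, had 2491 and 2768 pseudo-counts in proliferating cells, 2327 and 1966 in quiescent cells, 1952 and 1620 during clonal expansion and 3258 and 3015 after differentiation. Its differentiation libraries lay above all others, and its clonal expansion libraries lay below both proliferation libraries and below the quiescence ones. Rpa3 rose at differentiation over clonal expansion by 0.82 (SE 0.14, limma adjusted p = 0.000365). Without clonal expansion library 2 its call below proliferation was lost (-0.43, limma adjusted p = 0.057).

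Rfc1 (mm9 chr5:65653091-65726878), the large subunit of the clamp loader, had 14727 and 16515 pseudo-counts in proliferating cells, 12290 and 13348 in quiescent cells, 22557 and 21439 during clonal expansion and 22311 and 21422 after differentiation. The clonal expansion and differentiation libraries overlapped and lay above all the others. The 4 small subunits did not stay up at differentiation: against clonal expansion Rfc2 fell by 0.77, Rfc3 by 2.27, Rfc4 by 0.44 and Rfc5 by 1.94 on the log2 scale. Over proliferation at clonal expansion Rfc1 was at 0.50 (limma adjusted p = 0.0015), Rfc5 at 0.62 (limma adjusted p = 0.00249) and Rfc3 at 0.41 (limma adjusted p = 0.0206), while Rfc2 and Rfc4 differed by 0.02 (limma adjusted p = 0.913) and -0.00 (limma adjusted p = 0.988), with a sign that depended on the scaling and on single libraries. The calls of Rfc1 and Rfc3 here were lost in both other scalings, and that of Rfc3 also without proliferation library 1 or either clonal expansion library.

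All 5 genes of nucleotide supply fell at quiescence and rose at clonal expansion relative to quiescence, and then parted in how far they rose. Rrm2 (mm9 chr12:25393119-25399011), the subunit of ribonucleotide reductase whose level limits the enzyme, had 11169 and 18654 pseudo-counts in proliferating cells, 4693 and 4070 in quiescent cells, 70532 and 66055 during clonal expansion and 2772 and 2974 after differentiation. The 2 clonal expansion libraries exceeded every other library at least 3-fold. Clonal expansion stood 2.24 (SE 0.20, limma adjusted p = 7.35e-06) above proliferation and 3.96 (SE 0.20, limma adjusted p = 2.3e-07) above quiescence. Rrm1, the large subunit of the same enzyme, had 24153 and 32024 pseudo-counts in proliferating cells, 14013 and 13692 in quiescent cells, 43420 and 43535 during clonal expansion and 9515 and 8873 after differentiation. Its rise over proliferation was 0.64 (SE 0.13, limma adjusted p = 0.00141), that is 1.56-fold. Tyms, which makes thymidylate, had 4974 and 6920 pseudo-counts in proliferating cells, 3034 and 2762 in quiescent cells, 7700 and 7099 during clonal expansion and 1385 and 1495 after differentiation. Clonal expansion and proliferation differed by 0.33 (limma adjusted p = 0.0763). Dut, which removes dUTP, had 5144 and 7140 pseudo-counts in proliferating cells, 3771 and 3024 in quiescent cells, 11886 and 10860 during clonal expansion and 2434 and 2391 after differentiation, and rose over proliferation by 0.91 (SE 0.16, limma adjusted p = 0.000696).

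Tk1 (mm9 chr11:117676833-117687328), the thymidine kinase of the salvage route, had 6201 and 9360 pseudo-counts in proliferating cells, 2744 and 1988 in quiescent cells, 4225 and 3716 during clonal expansion and 2159 and 1763 after differentiation. Both clonal expansion libraries lay below both proliferation libraries, at 0.52 times their level by the fit, and above both quiescence libraries. That is the reverse of Rrm2, whose clonal expansion level was 4.73 times that of proliferation. Tk1 kept its call below proliferation in each of the 17 alternatives. The differentiation libraries of Tk1 overlapped its quiescence libraries (log2 fold change -0.26, SE 0.21, limma adjusted p = 0.299).

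In the group of 8 chromatin, checkpoint and other factors, 8 fell at quiescence, 8 rose at clonal expansion relative to quiescence and 8 stood above proliferation there, with a median of 2.17 times. Without proliferation library 2, 5 of the 8 fell at quiescence, the calls of Slbp, Ung and Cdca7 being lost. Ung (mm9 chr5:114580444-114589330) had 649 and 956 pseudo-counts in proliferating cells, 562 and 438 in quiescent cells, 5729 and 5908 during clonal expansion and 2707 and 1988 after differentiation. Its clonal expansion libraries were the highest, and its differentiation libraries lay above all proliferation and quiescence libraries. At clonal expansion Ung stood 2.88 (SE 0.21, limma adjusted p = 2.61e-06) above proliferation and at differentiation 2.22 (SE 0.21, limma adjusted p = 7.61e-06) above quiescence. Its fall at quiescence, -0.67 (limma adjusted p = 0.0471), was lost in 8 alternatives, among them without quiescence library 2 (-0.49, limma adjusted p = 0.163). Cdca7 (mm9 chr2:72314276-72324947) had 2534 and 3510 pseudo-counts in proliferating cells, 1965 and 1926 in quiescent cells, 13461 and 13506 during clonal expansion and 1742 and 1601 after differentiation. Clonal expansion stood 2.18 (SE 0.15, limma adjusted p = 1.57e-06) above proliferation, and differentiation against quiescence gave -0.22 (limma adjusted p = 0.208). The microRNA gene Mir684-1 lies within Cdca7 and reached at most 4.11 pseudo-counts.

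Dtl, the substrate receptor of the ubiquitin ligase that destroys Cdt1 in S phase, had 4675 and 6467 pseudo-counts in proliferating cells, 2289 and 2685 in quiescent cells, 12973 and 14388 during clonal expansion and 1778 and 1637 after differentiation. Clspn, the mediator that activates the checkpoint kinase Chk1, had 3528 and 5157 pseudo-counts in proliferating cells, 1536 and 1552 in quiescent cells, 9983 and 10014 during clonal expansion and 757 and 738 after differentiation. For both genes no 2 stages overlapped, and both stood above proliferation at clonal expansion, by 1.31 and 1.23. At differentiation Clspn fell further below quiescence than Dtl did, with -1.05 (SE 0.16, limma adjusted p = 0.000221) for Clspn and -0.54 (SE 0.16, limma adjusted p = 0.0115) for Dtl; the difference was not tested, and the fall of Dtl was no longer called without quiescence library 2 or differentiation library 2. Chaf1a, the large subunit of the chromatin assembly factor CAF-1, had 9462 and 12814 pseudo-counts in proliferating cells, 5658 and 5074 in quiescent cells, 22387 and 21925 during clonal expansion and 3160 and 3196 after differentiation. Chaf1b, the middle subunit, had 3133 and 4428 pseudo-counts in proliferating cells, 1936 and 1460 in quiescent cells, 5990 and 5533 during clonal expansion and 509 and 533 after differentiation. Both peaked at clonal expansion, Chaf1a by 1.01 (SE 0.14, limma adjusted p = 0.000123) over proliferation and Chaf1b by 0.63 (SE 0.18, limma adjusted p = 0.0117). The call of Chaf1b was lost without proliferation library 1 (0.38, limma adjusted p = 0.111), without clonal expansion library 1 (0.57, limma adjusted p = 0.0646) and with libraries scaled to the same total. Uhrf1, which brings the maintenance DNA methyltransferase to newly copied DNA, had 15783 and 20791 pseudo-counts in proliferating cells, 6824 and 5974 in quiescent cells, 28641 and 31289 during clonal expansion and 2540 and 2492 after differentiation. It was 0.139 times the proliferation level at differentiation (log2 fold change -2.85, SE 0.14, limma adjusted p = 5.25e-08), the largest fall of the 47 in that comparison. Slbp, which binds the stem-loop of histone mRNAs, had 6166 and 7702 pseudo-counts in proliferating cells, 5129 and 4668 in quiescent cells, 12624 and 12167 during clonal expansion and 3486 and 3544 after differentiation. Its range was narrower, with -0.49 (SE 0.12, limma adjusted p = 0.0152) at quiescence against proliferation and 0.85 (SE 0.12, limma adjusted p = 0.00016) at clonal expansion against proliferation.

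Levels of subunits of the same complex can be set side by side only per length, so mean pseudo-counts were divided by the length in kb of the longest annotated transcript. The 6 ring subunits Mcm2 to Mcm7 stayed within a narrow band: the highest was 1.75 times the lowest at proliferation, 1.86 times at quiescence, 1.66 times at clonal expansion and 2.74 times at differentiation. At clonal expansion they ran between 8570 per kb for Mcm6 and 14260 per kb for Mcm4. At differentiation Mcm7, at 2174 per kb, was the highest and Mcm3, at 793 per kb, the lowest. The clamp loader spread more by these lengths. Rfc1 was the highest subunit at every stage, 3.01 times the lowest at proliferation and 10.6 times at differentiation. At differentiation it was at 4603 per kb against 434 per kb for Rfc5. The lengths used were unequal: 4751 nt for Rfc1, 4995 for Rfc2, 2726 for Rfc3, 1279 for Rfc4 and 3751 for Rfc5. Ranks and ratios within a stage, here and in the other complexes, depend on such lengths and could differ with other transcripts. In the origin recognition complex Orc6 was the highest and Orc1 the lowest of the 3 subunits at every stage, with a ratio of 9.96 at proliferation, 16.3 at quiescence, 6.08 at clonal expansion and 26.6 at differentiation.

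Ribonucleotide reductase changed its balance. Per kb, Rrm2 over Rrm1 was 1.15 and 1.45 in proliferating cells, 0.836 and 0.742 in quiescent cells, 4.06 and 3.79 during clonal expansion and 0.727 and 0.837 after differentiation. The clonal expansion libraries stood apart from all others, and differentiation and quiescence overlapped. For Rpa3 over Rpa1 the ratio per kb was 1.00 and 0.866 in proliferating cells, 1.51 and 1.25 in quiescent cells, 0.553 and 0.459 during clonal expansion and 2.40 and 2.25 after differentiation, with no overlap between any 2 stages. Cdc6 over Orc2, per kb, gave 0.415 and 0.477 in proliferating cells, 0.211 and 0.183 in quiescent cells, 0.618 and 0.654 during clonal expansion and 0.107 and 0.0929 after differentiation, again without overlap. These ratios are of RNA and assume the longest transcript of each gene, and no test was made on them.

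**Figure D4:**
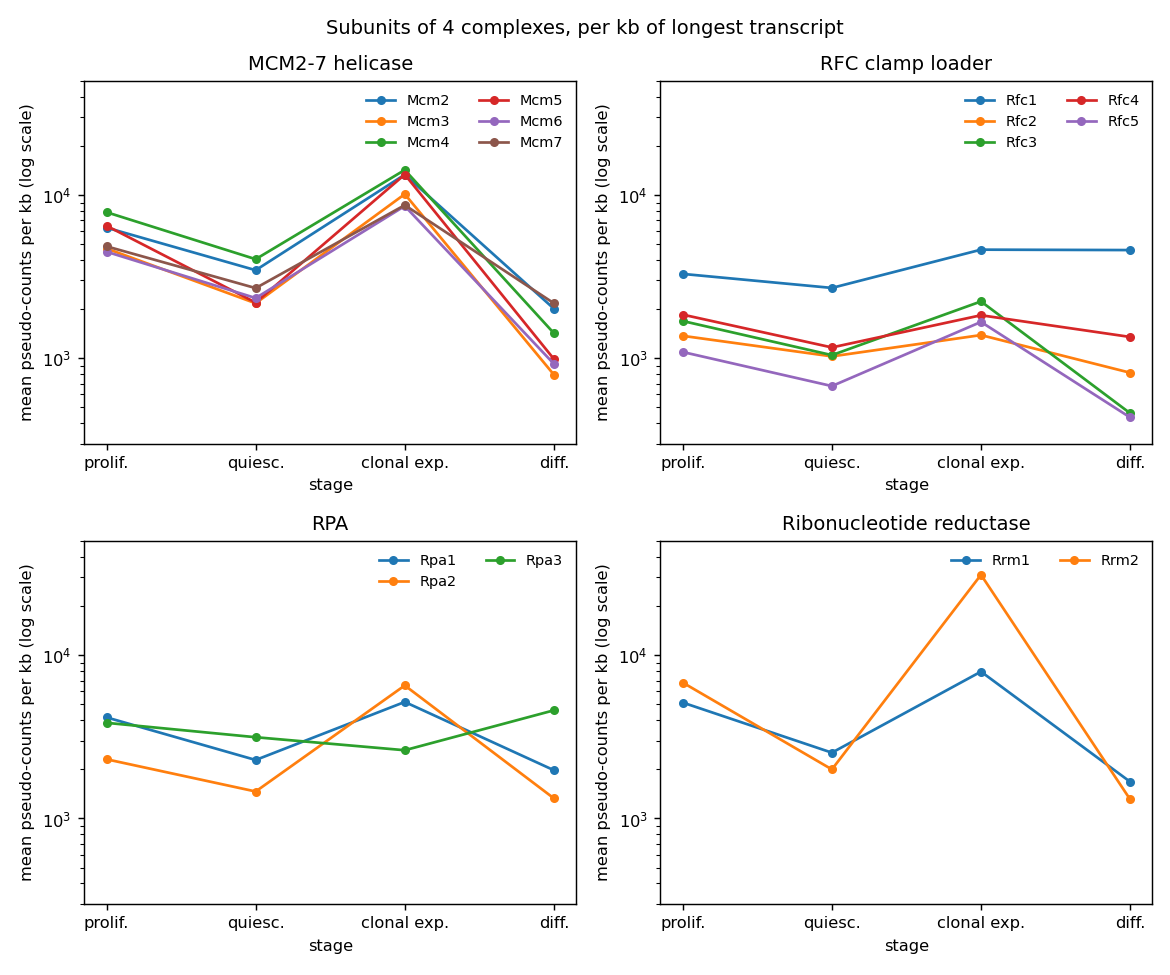
Mean pseudo-counts per kb of longest transcript (log axis) of the subunits of the Mcm2-7 helicase, the RFC clamp loader, RPA and ribonucleotide reductase at the 4 stages (points joined by lines, mean of 2 libraries). The helicase subunits run in a bundle, Rfc1 parts from the small RFC subunits at differentiation (4603 against 434 per kb for Rfc5), Rpa3 falls with Rpa1 and Rpa2 at quiescence but is lower at clonal expansion and higher at differentiation while they do the opposite, and Rrm2 exceeds Rrm1 most at clonal expansion (31140 against 7941 per kb).

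A list of 44 other genes of the same pathway was read beside the 47. At quiescence 28 fell and 0 rose relative to proliferation (median -0.53), where 11.8% of all genes tested were lower and 11.9% higher. At clonal expansion 37 rose and 4 fell relative to quiescence (median 1.35), where 34.4% of all genes were higher and 34.4% lower. Against proliferation 29 stood above and 4 below (median 0.69), beside 32.7% higher and 32.1% lower over all genes. Without proliferation library 2, 18 fell at quiescence, and 31 stood above and 2 below proliferation at clonal expansion; scaled to the same total 22 stood above and 8 below. Exo1, a nuclease of mismatch repair, averaged 6688 ± 81.9 pseudo-counts at clonal expansion and 1018 ± 32.5 at quiescence (SD, n = 2 each; log2 fold change 2.72, SE 0.16, limma adjusted p = 6.33e-07). Samhd1, which breaks down deoxynucleotides, averaged 69990 ± 2300 at clonal expansion and 17420 ± 1144 at proliferation (SD, n = 2 each; log2 fold change 2.01, SE 0.10, limma adjusted p = 2.94e-07). At differentiation against quiescence 12 of the 44 rose and 15 fell (median 0.08), where 33.4% of all genes tested were higher and 32.9% lower. Scaled to the same total, 6 rose and 21 fell (median -0.16), and after quantile normalization the median was -0.02. Pole4, a histone-fold subunit of polymerase epsilon, averaged 23620 ± 164 at differentiation and 6284 ± 656 at quiescence (SD, n = 2 each; log2 fold change 1.91, SE 0.11, limma adjusted p = 2.3e-07), whereas Pole2 of the same polymerase fell there by 1.38 on the log2 scale. Pold4, the smallest subunit of polymerase delta, was below proliferation at clonal expansion, at -0.81 (SE 0.17, limma adjusted p = 0.00175), and above quiescence at differentiation, at 1.03 (SE 0.17, limma adjusted p = 0.000352).

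The 28 genes of E2F and G1/S control were more mixed. At clonal expansion 22 rose and 4 fell relative to quiescence, where 34.4% of all genes tested were higher and 34.4% lower. Against proliferation 14 stood above and 5 below (median 0.49), where the shares of all genes were 32.7% and 32.1%. Scaled to the same total 12 stood above and 9 below proliferation (median 0.21), after quantile normalization 13 and 8, and without proliferation library 2, 15 and 5. Ccne2, a cyclin of the G1/S kinase, averaged 4695 ± 55.9 pseudo-counts at clonal expansion, 457 ± 5.44 at quiescence and 1010 ± 373 at proliferation (SD, n = 2 each), a change of 2.27 (SE 0.21, limma adjusted p = 1e-05) over proliferation. Cdc25a, the phosphatase that activates that kinase, was higher by 1.46 (SE 0.12, limma adjusted p = 5.8e-06). Cdkn1b and Rb1, a kinase inhibitor and the retinoblastoma protein, were lower than at proliferation by -1.05 (SE 0.10, limma adjusted p = 1.04e-05) and -1.23 (SE 0.12, limma adjusted p = 1.66e-05). At differentiation 11 of the 28 rose and 9 fell relative to quiescence, Cdkn1b among the latter, beside 33.4% and 32.9% of all genes tested. Relative to clonal expansion 5 rose and 18 fell, beside 36.8% and 36.2%. Cdkn2c, an inhibitor of the Cdk4 and Cdk6 kinases, averaged 22080 ± 3547 at differentiation, against 1176 ± 64.2 at clonal expansion (SD, n = 2 each, log2 fold change 4.22, SE 0.13, limma adjusted p = 4e-09). The inhibitor genes Cdkn1a and Cdkn1b were on neither side in that comparison. Ccnd1, a D-type cyclin that partners those kinases, fell there to 8832 ± 2431, against 156800 ± 6190 (SD, n = 2 each, log2 fold change -4.18, SE 0.18, limma adjusted p = 2.33e-08). Of the other D-type cyclins in the list, Ccnd2 was called higher there, at 212200 ± 7067 against 169600 ± 4156 (SD, n = 2 each). Ccnd3 was called lower, at 26860 ± 2718 against 54570 ± 2543 (SD, n = 2 each).

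The 41 genes of G2 and mitosis were mostly below their proliferation level at clonal expansion. At quiescence 41 of 41 fell relative to proliferation, with a median of -1.55 (-1.28 without proliferation library 2). Over all genes tested, 11.8% were lower and 11.9% higher there. At clonal expansion 15 rose and 4 fell relative to quiescence (median 0.29), where 34.4% of all genes tested were higher and 34.4% lower; scaled to the same total 10 rose and 6 fell (median 0.05). Against proliferation 2 were higher and 36 lower (median -1.36), where 35 of the 47 replication genes were higher (median 0.82). Over all genes tested, 32.7% were higher and 32.1% lower in that comparison. Scaling to the same total gave 2 higher and 39 lower for the G2/M list, and leaving out proliferation library 2 gave 2 higher and 34 lower. The lowest against proliferation was Ccnb2, a mitotic cyclin, which averaged 1000 ± 288 pseudo-counts at clonal expansion and 5255 ± 1210 at proliferation (SD, n = 2 each; log2 fold change -2.40, SE 0.23, limma adjusted p = 1.41e-05). Kif23, a motor of cytokinesis, was next at -2.13 (SE 0.19, limma adjusted p = 9.49e-06). The 2 that stood higher were Top2a, the topoisomerase that is also needed behind the replication fork, at 0.76 (SE 0.16, limma adjusted p = 0.0023), and the checkpoint protein gene Bub3 at 0.57 (SE 0.11, limma adjusted p = 0.00145). The difference between the 2 lists was not tested, and the comparisons with quiescence and with proliferation share the clonal expansion libraries, and both of those with proliferation share its libraries. At differentiation 37 of the 41 were below quiescence and 0 above (median -1.12), beside 30 below and 5 above among the replication genes (median -0.59). Over all genes tested, 32.9% were lower and 33.4% higher there.

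**Figure D5:**
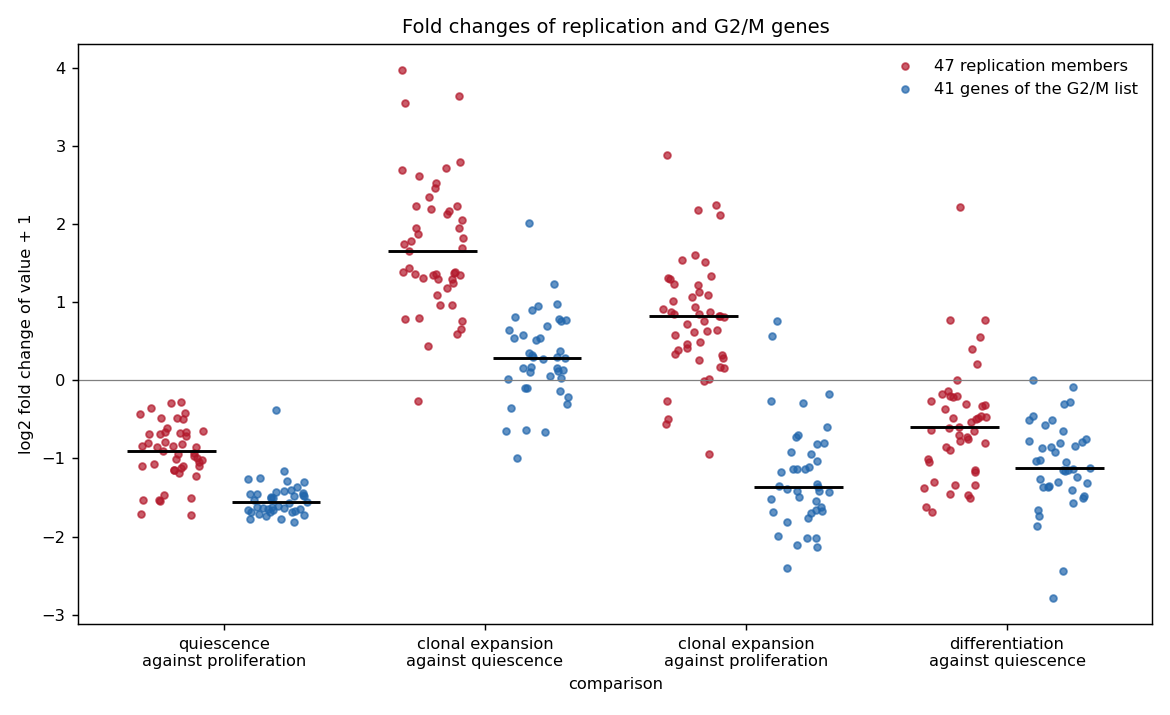
Log2 fold change of each of the 47 replication genes (red, left in each pair) and of the 41 genes of the G2/M list (blue) in 4 comparisons, with the median as a line and sideways scatter for legibility only. In clonal expansion against proliferation the replication genes have a median of 0.82 and the G2/M genes one of -1.36, while in quiescence against proliferation both are below 0 (-0.90 and -1.55).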

How the data were processed

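RNA was measured by unstranded RNA-seq (single reads of 100 nt) in 8 libraries of 3T3-L1 cells, 2 at each of 4 stages. The deposited signal values are pseudo-counts per gene that the authors made, according to the deposited table's name, by bringing read counts to a common library size with edgeR's relative log expression factors. CASAVA 1.8.2 and the mm9 build are named in the submitters' processing notes; the aligner, the counting tool and the gene models are not given in the sources used here. Pseudo-counts are not whole numbers, and only 16.1% to 40.0% of values below 20 were whole multiples of a library's commonest low value (tolerance 0.02), so reads were not recovered and no count test was run. The library totals are sums of these normalised values, so they do not give sequencing depth, and they were not used for counting intervals.

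Genes with a mean of 10 or more (14647 of 22798) were fitted together with limma 3.58.1 in R 4.3.3 on log2(value + 1), with stage as the only term, a mean-variance trend and Benjamini-Hochberg adjustment over all genes tested, two-sided, with a threshold of 0.05. All 8 libraries share 1 estimate of the spread (4 residual degrees of freedom, 9.78 after moderation), and the median standard error of a change was 0.14. The fit was also run on simulated data, with few genes changed, at quiescence only, and independent noise. That setting lacks the offset between the proliferation libraries, so it does not bear on the calls reported. The 6 pairwise comparisons of stages were made, with 17 alternative settings. The members and all lists were chosen with earlier results of these data known. Every member may be named. Values in every library are given for the members with the largest and smallest changes of each role and for 22 core genes. Of each other list at most the 2 largest changes each way are given. Exceptions are Ccnd2 and Ccnd3, set beside Ccnd1, and Cdkn1a and Cdkn1b, set beside Cdkn2c.

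Coordinates of genes are those of the deposited table (mm9). Promoter sequences are RefSeq's on GRCm38.p6 and transcript lengths are GENCODE M21's longest per gene (98.9% of genes tested had one); protein sequences were not used here.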

Additional observations from a re-analysis of the deposited data

How the results depend on the processing

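The median change of the 47 genes kept its sign in all 6 comparisons under each of the 17 alternatives, and counts of calls stayed within 1.5 times of those reported, except for the following. With every library scaled to the same total, 1 gene (Rpa3) was lower in clonal expansion against quiescence, where 0 were otherwise, 3 were higher in differentiation against quiescence and 1 in differentiation against proliferation; with the trend on transcript length removed, 1 (Rpa3) was lower in clonal expansion against quiescence. Leaving out single libraries gave 30 to 45 lower genes in quiescence against proliferation, with 1304 (without proliferation library 2) to 3536 calls over all genes, and 0 to 1 lower genes in clonal expansion against quiescence. Other ranges were 44 to 46 higher there, 44 to 45 lower in differentiation against clonal expansion, 25 to 33 lower in differentiation against quiescence, 31 to 38 higher in clonal expansion against proliferation and 41 to 43 lower in differentiation against proliferation.

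Changes whose sign turned were small, and none was called where the sign had turned; of these, Gins1 in clonal expansion against proliferation was called higher after quantile normalization (0.50, limma adjusted p = 0.0196), and Mcm8 in differentiation against quiescence was called lower when scaled to the same total (-0.41, limma adjusted p = 0.0357). Scaled to the same total they were, in differentiation against quiescence, -0.03 for Rfc4 and -0.23 for Orc6, in clonal expansion against proliferation -0.12 for Mcm8, -0.01 for Gins1, -0.26 for Rfc2 and -0.10 for Gins2, and in differentiation against proliferation -0.02 for Rpa3. Quantile normalization gave 0.08 for Rfc1 in differentiation against clonal expansion, -0.09 for Orc6 in differentiation against quiescence, and 0.06 for Rfc4 and -0.12 for Rfc2 in clonal expansion against proliferation. Without the length trend Rfc1 was at 0.03 in differentiation against clonal expansion and Orc6 at -0.11 in differentiation against quiescence. Without single libraries Rfc2 ran between -0.09 and 0.13 and Rfc4 between -0.18 and 0.17 in clonal expansion against proliferation, Orc6 between -0.09 and 0.10 and Mcm8 between -0.36 and 0.01 in differentiation against quiescence, and Rfc1 between -0.05 and 0.03 in differentiation against clonal expansion. The cause was not tested.

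The experiment numbers were not taken to pair libraries across stages, because nothing in the labels says that they do. Deviations of same-numbered libraries from their stage means correlated, over genes, at 0.013 to 0.35 in the 6 pairs of stages, with 4 of them under 0.1. The highest, 0.354, was that of quiescence and clonal expansion. These correlations do not settle whether the numbers pair libraries. With the number as a replicate block, 44 genes were lower in quiescence against proliferation, 46 higher in clonal expansion against quiescence, 31 lower and 5 higher in differentiation against quiescence, and 37 higher and 3 lower in clonal expansion against proliferation; the block lost no call and added Rfc2, Pole and Pole2.

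With 2 libraries a stage, 4 residual degrees of freedom and a median standard error of 0.14, the smallest change called among the 47 genes was 0.33 on the log2 scale. Genes on neither side of a comparison may still differ, and their estimates reached 0.39 (Pole2 in clonal expansion against proliferation). All 47 genes were above 0 in every library. Whether the 2 libraries of a stage came from separate cultures is not known.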
